A study of Macaca mulatta with 5 samples.

Results

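A stretch of rhesus monkey (Macaca mulatta) chromosome 2 held 4 long noncoding RNAs (lncRNAs). Each was detected in cells labelled R_NSCP1 and barely or not detected in embryonic stem cells, labelled rESC. The stretch runs from 106500000 to 106900000, and every lncRNA of the deposited table with both ends inside it was taken, 4 of 1404 transcripts. The stretch was selected on the FPKM values of these transcripts in the 2 lncRNA libraries, low in rESC and high in R_NSCP1, so their levels are a description and carry no test. All MeDIP peaks inside it were taken too, 3 of 48838 in rESC and 8 of 83528 in R_NSCP1. The build behind the coordinates is not stated in the labels or headers, and the table carries no gene names, so positions were not assigned to genes and no sequence is shown.

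The study set R_NSCP1 against rESC to follow noncoding RNA and DNA methylation as embryonic stem cells take a neural fate. For either cell type there was 1 library of each assay, and a pooled MeDIP input of both was not analysed here. R_NSCP1 is not spelled out in the labels, which give every sample the cell type embryonic stem cell and name no clone, passage or treatment, so neither cell type could be checked against marker genes. There were no replicates. Each difference is therefore one between 2 libraries, and intervals cover counting error only. The MeDIP libraries held 8690541 tags in rESC and 9071243 in R_NSCP1, a ratio of 1.04. The depth behind the lncRNA values is unknown.

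A lncRNA is a long transcript with no recognised protein product. Many lncRNAs are made in 1 cell type or at 1 stage of development, and some act on genes near their own site while others act elsewhere or have no known role. Methylation of cytosine in DNA is a mark that often goes with silence when it covers a promoter and is common within the bodies of transcribed genes. MeDIP-seq reads it by pulling down methylated fragments with an antibody, and a peak is a place where fragments pile up over the surrounding level. The level of a lncRNA is given in FPKM, which is the number of fragments for each kilobase of a transcript after scaling by library size, so levels of different lncRNAs can be compared within a library.

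The transcripts are called L1 to L4 here, in chromosome order. L1 lay on the minus strand from 106544160 to 106547048 and spanned 2889 bp. L2 lay on the minus strand from 106613376 to 106688854 and was the longest, with a span of 75479 bp, above 94.6% of the listed lncRNAs. L3 lay on the minus strand from 106777207 to 106778902 and was the shortest, at 1696 bp. L4 was the only one on the plus strand, from 106827326 to 106841517, with a span of 14192 bp. No 2 of them overlapped, so the 4 transcripts stood at 4 distinct places, and none had a second transcript listed at its place.

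The places were separated by 66.3 kb between L1 and L2, 88.4 kb between L2 and L3 and 48.4 kb between L3 and L4. Together they filled 297.4 kb from the first base of L1 to the last of L4, and their spans made up 23.6% of the interval. L3 and L4 pointed away from each other, with their starts 48.4 kb apart. The stretch was chosen as a cluster of places within 400 kb, so close spacing was fixed by the choice and its comparison is only a description. The median gap between neighbouring lncRNA places on the assembled chromosomes was 1188 kb. Of 1087 gaps, 16.3% were no larger than the widest gap of the cluster. Density of this kind also occurred elsewhere. Of 1108 places, 42 (3.79%) opened a window of the same 400 kb width that held at least 4 places, and the densest window held 11.

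**Figure D1:**
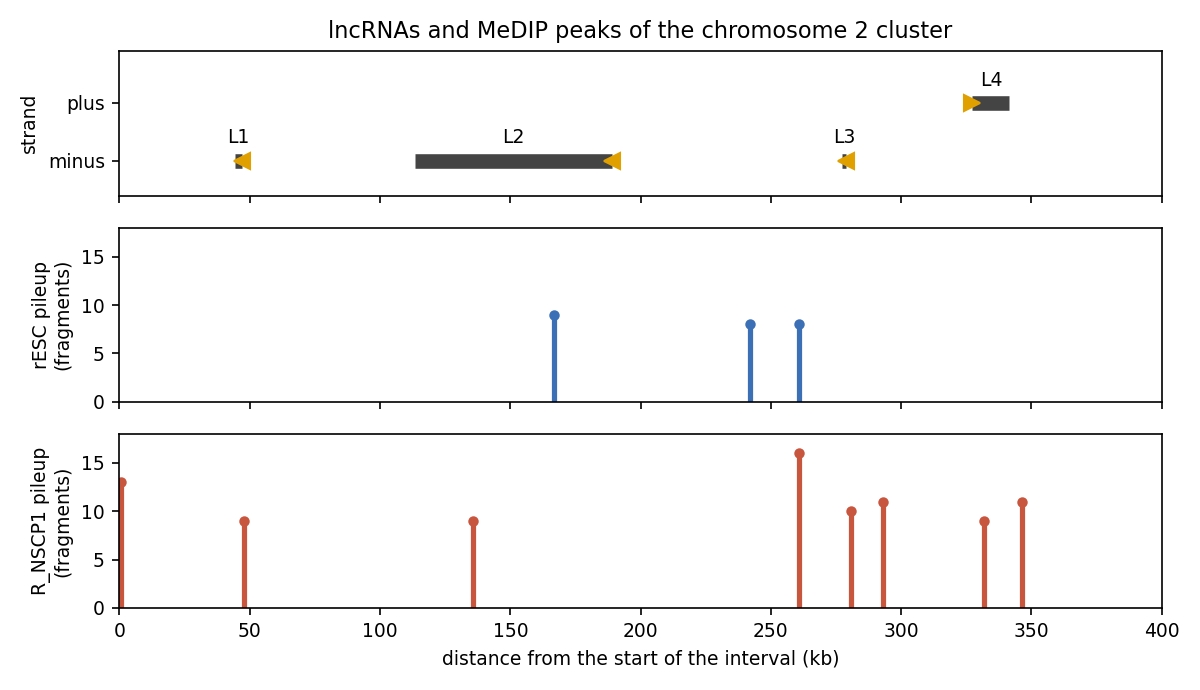
Map of the interval, with distance from its start in kb on the horizontal axis. The top panel shows the 4 lncRNAs by strand (arrowheads mark the start of transcription given by the strand), and the lower panels show each MeDIP peak at its summit with its pileup in fragments, 3 peaks in rESC and 8 in R_NSCP1; L1, L2 and L3 lie on the minus strand and L4 on the plus strand.

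L2 had the highest level of the 4 in R_NSCP1. Its FPKM was 0.0120 in rESC and 13.2 in R_NSCP1, which ranked 81 of 1404 in the R_NSCP1 library. L1 stood at 0.0717 in rESC and 9.53 in R_NSCP1, rank 112. L3 was listed at 0 in rESC and stood at 8.56 in R_NSCP1, rank 132. Each of these 3 stood above at least 90.6% of the lncRNAs in the R_NSCP1 library. L4 was the weakest, at 1.48e-06 in rESC and 3.48 in R_NSCP1, rank 485, a level above 65.5% of the listed lncRNAs. The order of levels in R_NSCP1 was thus L2, L1, L3 and L4, but with 1 library there is no spread by which neighbours in that order can be told apart.

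All rESC values of the cluster were under an FPKM of 0.1, a range that held 200 of the 1404 lncRNAs (14.2%) in that library. The levels of the members did not overlap between the cell types: the highest rESC value was 0.0717 and the lowest R_NSCP1 value 3.48. The choice of members fixed this. Of all 1404 lncRNAs, 175 (12.5%) paired an rESC FPKM under 0.1 with an R_NSCP1 FPKM of at least 1. The ratio of FPKM values was 133 for L1 and 1095 for L2. No ratio is given for L3, which was listed at 0, or for L4, whose rESC value is too small to stand for a whole fragment. The ratios of L1 and L2 both rest on rESC values so near the floor that their sizes are uncertain.

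On the log2(FPKM + 0.1) scale, which understates differences of weakly expressed transcripts, the R_NSCP1 minus rESC difference was 5.81 for L1, 6.89 for L2, 6.44 for L3 and 5.16 for L4. The median of the 4 was 6.12, against 0.09 over the 1395 lncRNAs that reached an FPKM of 0.1 in either library. Among those 1395 the difference of L2 ranked 7, that of L3 ranked 15, that of L1 ranked 30 and that of L4 ranked 70 towards R_NSCP1. All 4 were at least 2-fold higher in R_NSCP1, a threshold passed by 34.7% of lncRNAs, and the choice of members fixed this direction. The sizes moved with the pseudocount: the median was 3.28 with a pseudocount of 1 and 8.84 with 0.01.

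**Figure D2:**
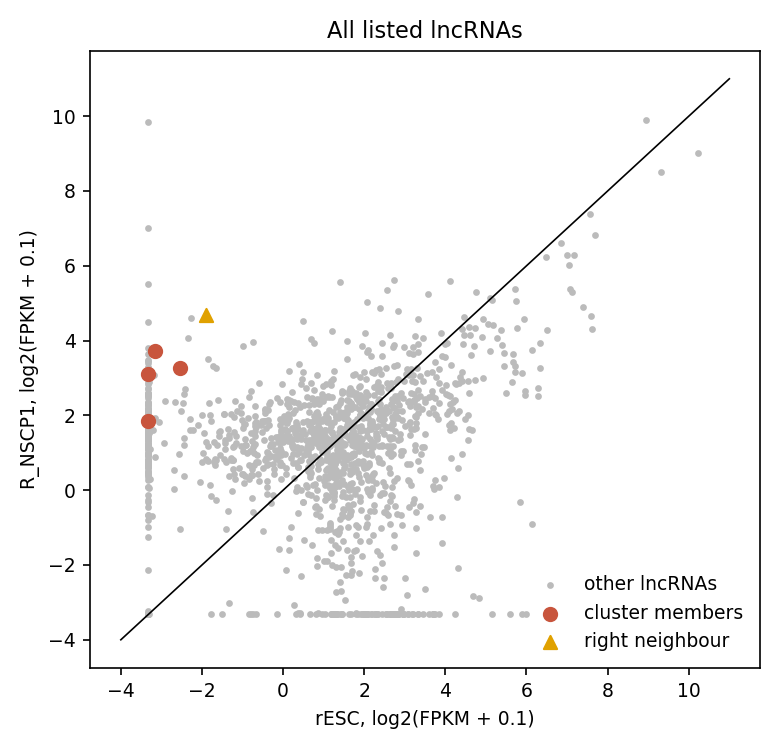
Levels of all 1404 lncRNAs as log2(FPKM + 0.1), rESC on the horizontal axis and R_NSCP1 on the vertical axis, 1 point per transcript; the line marks equal levels. The 4 cluster members (red) and the neighbour on their right (triangle) lie towards the left, above the line, between an R_NSCP1 FPKM of 3.48 and 25.5. L3 and L4 lie at the left edge, and the neighbour lies furthest from it.

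The members made up a small part of the lncRNA signal of chromosome 2 in rESC and a larger one in R_NSCP1. Their FPKM values summed to 0.0837 in rESC, 0.0557% of the 48 lncRNAs of that chromosome, and to 34.8 in R_NSCP1, 14.8%. Chromosome 2 itself leaned towards R_NSCP1: of its other 44 lncRNAs, 23 (52.3%) were at least 2-fold higher there and 12 were at least 2-fold higher in rESC, with a median log2 difference of 1.27. Higher levels in R_NSCP1 were therefore common on this chromosome outside the cluster, with a smaller median difference.

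The nearest lncRNA to the right showed the same pattern as the members. It was the only lncRNA listed within 1 Mb of the interval. It lay on the minus strand from 107024523 to 107150705, 124.5 kb beyond the edge, and spanned 126183 bp. Its FPKM was 0.166 in rESC and 25.5 in R_NSCP1, rank 30 in that library, which was above all 4 members. Its log2 difference was 6.59, rank 13 of 1395, and its FPKM ratio was 154. The edge of the interval thus did not mark an edge of the pattern: 5 lncRNAs in a row over 606.5 kb, from the left end of L1 to the right end of this neighbour, were each higher in R_NSCP1 by 32-fold or more once 0.1 was added to each FPKM.

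Beyond these 5 the pattern stopped. The next lncRNA to the left, on the minus strand from 104697017 to 104702823, lay 1.84 Mb from L1. Its FPKM was 2.31 in rESC and 2.56 in R_NSCP1, and its log2 difference was 0.14. The next to the right, on the minus strand from 109335752 to 109337430, lay 2.19 Mb beyond the neighbour. Its FPKM was 4.66 in rESC and 1.26 in R_NSCP1, and its log2 difference was -1.80. No lncRNA was listed between, so the table does not show where within these distances the pattern ended.

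**Figure D3:**
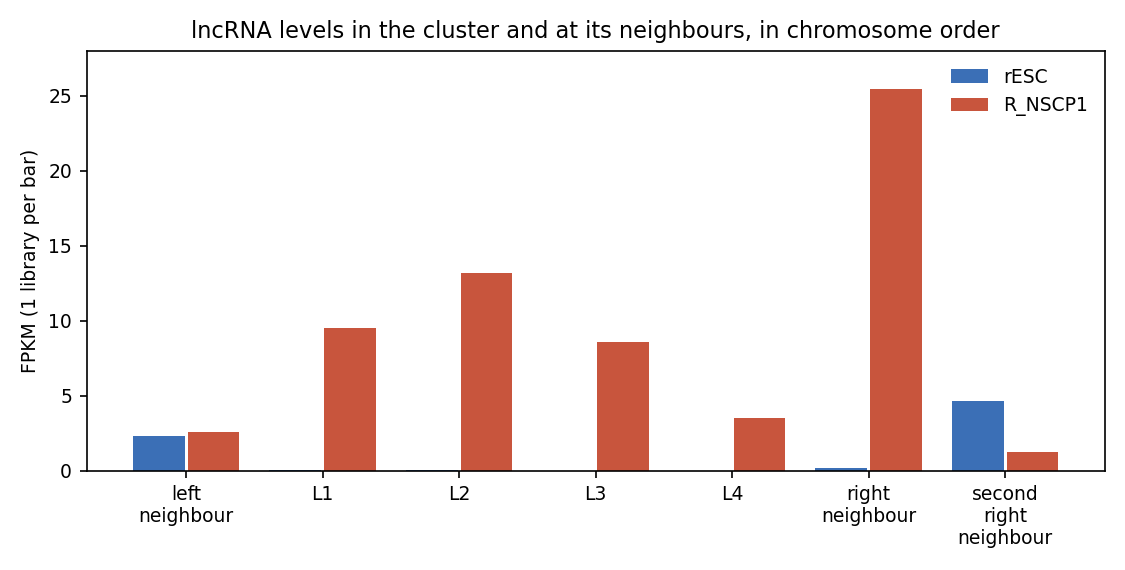
FPKM of 7 lncRNAs in chromosome order, rESC in blue and R_NSCP1 in red, with 1 library per bar and therefore no error bars. The members L1 to L4 and the right neighbour stand between 3.48 and 25.5 in R_NSCP1 and at no more than 0.166 in rESC, while the left neighbour is at 2.31 and 2.56 and the second right neighbour is lower in R_NSCP1.

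Runs of neighbouring lncRNA places with the same direction were counted along the assembled chromosomes, at thresholds chosen after the values were seen. At 32-fold and the pseudocount of 0.1, 72 of 1108 places passed, and the 5 on chromosome 2 formed the only run of 4 or more. The longest run elsewhere was 3. The cluster was selected for its levels, so this comparison is only a description. With a pseudocount of 0.01, 130 places passed 32-fold and the longest run elsewhere was 4, so the run of 5 was then no longer the only one of 4 or more. At 4-fold and the pseudocount of 0.1, 251 of 1108 places passed. The run with the cluster was again 5, but 3 runs elsewhere were at least as long and the longest held 7. At 2-fold, 391 of 1108 places passed and the longest run, outside the cluster, held 11 places. Neighbouring lncRNAs that shared a direction were thus not particular to the cluster. Towards rESC the longest run at 32-fold was 2. With a pseudocount of 1, none of the 5 reached 32-fold, and at 4-fold their run of 5 was longer than any other, the next being 4. With a pseudocount of 0.01, 5 runs elsewhere were at least as long at 4-fold.

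The combination of an rESC FPKM under 0.1 with an R_NSCP1 FPKM of at least 1 was met by all 4 members and by 12.5% of the table, 175 of 1404 transcripts. The right neighbour missed it, since its rESC value was above 0.1. On the assembled chromosomes these transcripts stood at 120 places. No window of 400 kb that opened at such a place outside the cluster held more than 3 of them, and 2 windows held 3. The stretch was selected for these levels, so its own count of 4 was fixed by the choice and the comparison is only a description.

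The lncRNAs with the levels most like the median member were taken from outside the interval and its flanks, by distance over the log2(FPKM + 0.1) values of the 2 libraries. With only 2 values per lncRNA this measures like levels and nothing more. The nearest was a minus-strand lncRNA of chromosome 18 from 2601337 to 2607799, listed at 0 in rESC and at 9.46 in R_NSCP1. It was followed by one on the plus strand of chromosome 5 from 10770288 to 10775174, at 0.00976 and 8.40. The next lay on chromosome 1 from 71617316 to 71617710 (0 and 9.79), chromosome 19 from 44025879 to 44030919 (0 and 8.02) and chromosome 7 from 1833820 to 1893851 (0 and 10.4). None of the 5 lay on chromosome 2.

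Few MeDIP peaks were called in the interval in either cell type. The 3 rESC peaks made 7.5 per Mb (95% exact Poisson interval 1.55 to 21.9), and the 8 R_NSCP1 peaks 20.0 per Mb (8.63 to 39.4). The 1 Mb on either side together held 25 rESC peaks, 12.5 per Mb (8.09 to 18.5), and 48 R_NSCP1 peaks, 24.0 per Mb (17.7 to 31.8). All of chromosome 2 held 12.8 and 22.4 per Mb. The intervals overlapped, so a density in the cluster different from that around it was not detectable from so few peaks.

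The R_NSCP1 to rESC ratio of peaks was 2.67 in the interval (95% exact binomial interval 0.640 to 15.6), 1.92 in the flanks (1.16 to 3.25) and 1.75 on chromosome 2 (1.66 to 1.83). The interval's own ratio included 1 in its range. More peaks in R_NSCP1 were found over the whole chromosome and over the whole lists, with 83528 peaks against 48838 in rESC. The 11 peaks of the cluster were too few to set the cluster apart. Peaks covered 918 bp of the interval in rESC and 2096 bp in R_NSCP1, 0.230% and 0.524% of its length.

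**Figure D4:**
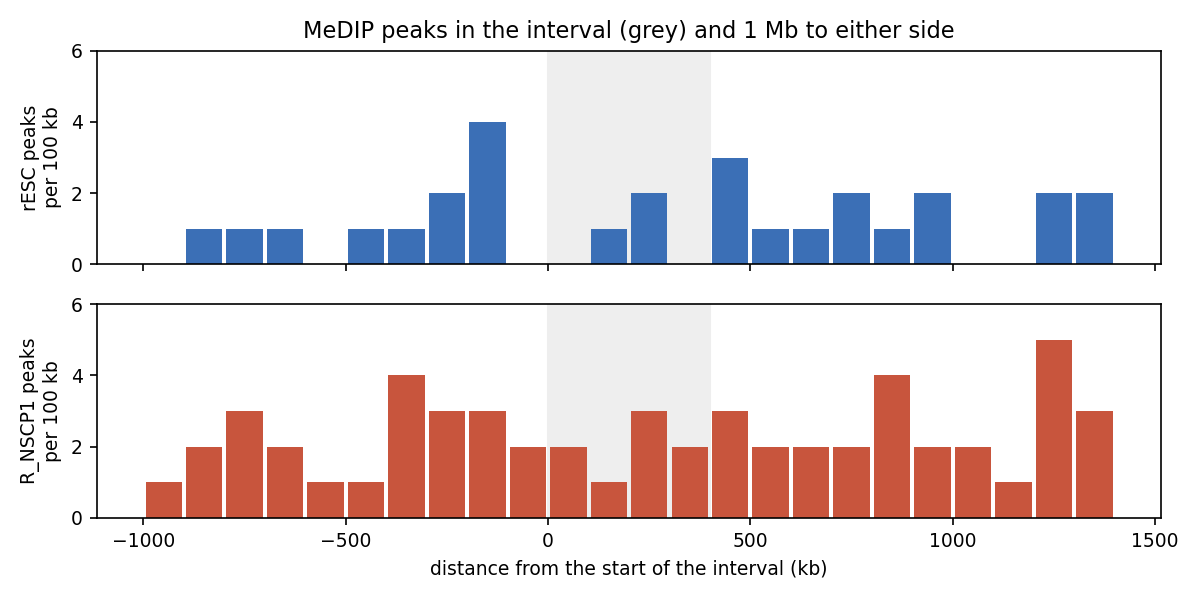
Number of MeDIP peaks per 100 kb by distance from the start of the interval, in kb, rESC above and R_NSCP1 below; the grey band marks the interval. The 3 rESC and 8 R_NSCP1 peaks of the interval lie within the range of counts seen in the 1 Mb on either side.

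All 3 rESC peaks were weak for their library. Pileup counts the fragments that overlap at a peak, unscaled, so it ranks peaks within a library only, and the values given here are the authors'. The rESC peak from 106666595 to 106666940 had a pileup of 9 and a −log10 q of 4.63. The peaks from 106741786 to 106742034 and from 106760487 to 106760809 each had a pileup of 8 and a −log10 q of 4.59. The median pileup over all rESC peaks was 13, and the 3 peaks lay between percentiles 10.3 and 16.2 of the rESC list by −log10 q. The fold enrichment over local background was 5.14 to 5.23, against a median of 6.01 in that list.

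The R_NSCP1 peaks covered a wider range of strength. The strongest, from 106760468 to 106760852, had a pileup of 16, a fold enrichment of 9.31 and a −log10 q of 13.2, at percentile 83.2 of its list. The next, from 106500532 to 106500779 at the left edge of the interval, had a pileup of 13 and a −log10 q of 9.17. The other 6 had pileups of 9 to 11 and a −log10 q of 5.56 to 8.03, at percentiles 19.0 to 52.6 of the list. Those within 5 kb of the starts of L1, L3 and L4 lay at percentiles 19.0, 38.6 and 22.2. Their pileups were 9, 10 and 9, against a median of 13 over all R_NSCP1 peaks, so they too were weak to moderate for their library. The median fold enrichment of the 8 was 6.33, close to the 6.23 of the whole R_NSCP1 list.

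A single place was called in both cell types. It was the strongest R_NSCP1 peak, which overlapped the rESC peak from 106760487 to 106760809, and their summits stood at 106760661 and 106760637. The R_NSCP1 peak lay 18050 bp downstream of the start of L3, beyond the end of that transcript and outside all members. The other 7 R_NSCP1 peaks had no rESC peak nearer than 19.9 kb, and the other 2 rESC peaks had no R_NSCP1 peak nearer than 18.4 kb. On chromosome 2 as a whole, the other library had an overlapping peak for 61.8% of 2469 rESC and 35.2% of 4310 R_NSCP1 peaks.

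L1 had the peak nearest to a start. It stood in R_NSCP1 from 106547707 to 106547947, 659 bp upstream of the start of L1, with a pileup of 9 and a −log10 q of 5.56. The nearest rESC peak to this start lay 119.5 kb away. At L3 an R_NSCP1 peak from 106780706 to 106780953 (pileup 10, −log10 q 6.92) lay 1804 bp upstream of the start, and the nearest rESC peak was the shared one at 18093 bp. A further R_NSCP1 peak, from 106793110 to 106793345 (pileup 11), lay between the starts of L3 and L4, 14.2 kb upstream of L3.

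L4 had an R_NSCP1 peak inside its span, from 106831806 to 106832047 (pileup 9, −log10 q 5.86), 4480 bp downstream of its start. Another, from 106846341 to 106846600 (pileup 11), lay past its end. No rESC peak lay nearer than 66.5 kb to that start. L2 held 1 peak of each library within its long body: an R_NSCP1 peak from 106635622 to 106635857 (pileup 9), 53.0 kb downstream of the start, and an rESC peak from 106666595 to 106666940 (pileup 9), 21.9 kb downstream. Neither overlapped a peak of the other library.

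Within 5 kb of the start, 3 of 4 members had an R_NSCP1 peak, against 33.8% of all 1404 lncRNAs, and 0 of 4 had an rESC peak, against 20.9%. Within 1 kb the counts were 1 of 4 in R_NSCP1, against 9.83%, and 0 of 4 in rESC, against 5.34%. An R_NSCP1 peak without an rESC peak within 5 kb was thus found at L1, L3 and L4, and at 17.0% of all lncRNAs (95% Wilson interval 15.1% to 19.0%). Among the other 171 lncRNAs with an rESC FPKM under 0.1 and an R_NSCP1 FPKM of at least 1, the share was 10.5% (6.76% to 16.0%). Both intervals count transcripts as independent, which transcripts at 1 place are not, so they can be too narrow. The arrangement at L1, L3 and L4 was therefore not common among lncRNAs with like levels, and 4 starts are too few to call it particular to the cluster.

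The right neighbour had no peak near its start. Its nearest rESC peak lay 25054 bp from the start and its nearest R_NSCP1 peak 25121 bp away, while its body of 126183 bp held 2 rESC and 3 R_NSCP1 peaks. Its log2 difference of 6.59 lay between the 5.16 of L4 and the 6.89 of L2. It lacked the R_NSCP1 peak within 5 kb of the start seen at L1, L3 and L4. L2 lacked one too, with its nearest R_NSCP1 peak 53.0 kb from the start. A link between such peaks and the levels was not tested. Peak calling used no control library, so copy number and mappability were not removed, and their part in single peaks was not tested.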

How the data were processed

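The members and lists were chosen with earlier results of these data known. The lncRNA levels are FPKM as deposited, per the file headers; the steps from reads to transcripts and the genome build are not stated in the labels or headers. Tools listed in the submitters' processing notes were TopHat2 2.0.11, BWA 0.7.7 and MACS2, and per the labels' protocols the RNA libraries keep the strand. Peaks were called per the file headers with MACS 2.1.0.20150731 on each library alone, with no control, a q cutoff of 0.01 and 1 tag kept per position. The deposited pileup signal, fold enrichment and −log10 p and q values refer to each library's own background. The deposited p-value of the lncRNA table has no stated test.

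Differences were R_NSCP1 minus rESC on log2(FPKM + 0.1). Transcripts that overlap on 1 strand were merged to places, whose FPKM values were summed. Peaks sharing at least 1 bp were counted as shared, and distances run from a transcript start to the nearest peak edge. A shared build was assumed from shared chromosome names. No test was made with 1 library per group. The text names all members and peaks of the interval, the nearest flanking lncRNAs and the 5 most like; the lncRNAs beyond 1 Mb were added after their values were seen. The steps were tested on simulated data. Scripts ran in Python 3.11.15 with pandas 2.3.3, numpy 2.4.6, matplotlib 3.10.9 and scipy 1.17.1.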

Additional observations from a re-analysis of the deposited data

How the results depend on the processing

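All 4 members were at least 2-fold higher in R_NSCP1 with no filter, with an FPKM of at least 1, at 4-fold and with pseudocounts of 1 and 0.01. The median difference of 6.12 became 3.28 and 8.84 with those pseudocounts and 6.03 when centred on the median of all lncRNAs. With flanks of 2 Mb, 2 lncRNAs entered and their median difference was 3.37 in place of 6.59. With peaks below a −log10 q of 5 left out, the interval kept 0 of 3 rESC peaks and 8 of 8 R_NSCP1 peaks. That cut fell between the strongest rESC peak, at 4.63, and the weakest R_NSCP1 peaks, at 5.56. These stood at similar percentiles of their own lists, 16.2 and 19.0, so the contrast rests on where the cut was set. No rESC peak was then left to share, so 0 R_NSCP1 peaks were shared and no rESC value could be given. The 3 starts with an R_NSCP1 peak within 5 kb kept it at that threshold, an alternative added after seeing the data. With all peaks kept, 3 rESC and 6 R_NSCP1 peaks lay within the span from the first to the last base of the members. Merging transcripts within 10 kb and an overlap of 50% changed no count. With 1 library per group, no library could be left out.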

Other observations

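The rESC value of L4, 1.48e-06, was above 0 without standing for a fragment. Over the 14192 bp of its span, 1 fragment would give that FPKM only in a library of 4.76e+10 fragments, and over a shorter spliced length only in a larger one. Values above 0 and under 0.001 were listed for 16 lncRNAs in rESC and for 17 in R_NSCP1. L4 and L3 can thus be read alike in rESC, as not detectable at an unknown depth.

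The authors' deposited table called all 4 members up, as it did 16.0% of its 1404 transcripts. In the authors' deposited table the p-value was 1.38e-16 for L1, 1.8e-35 for L2, 0 for L3 and 5.41e-19 for L4. For each of these 4, the p in the authors' deposited table equalled, within 1%, the rESC FPKM to the power k over the factorial of k, with k the R_NSCP1 FPKM cut to a whole number. By this form any lncRNA listed at 0 in rESC with an R_NSCP1 FPKM of at least 1 gets a p of 0, and the p of L4 in the authors' deposited table rests on the value of 1.48e-06.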
